A study of Mus musculus with 40 samples.

Results

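A set of 10 genes that carry glucose into the cell and through glycolysis were followed over 5 days in aggregates of mouse embryonic stem cells. They were the glucose transporter genes Slc2a1 and Slc2a3, the hexokinase genes Hk1 and Hk2, the genes of the later enzymes Pfkl, Aldoa, Pgk1, Pkm and Ldha, and Pdk1, a kinase gene of the pyruvate dehydrogenase complex. The genes were chosen by symbol and not by a cut on their measured values. Earlier results of these data were known when they and the gene lists below were chosen. Their 10 symbols matched 11 of the 26906 genes in the count table, since Aldoa is listed under 2 identifiers, and all 11 passed the filter on low counts with 16878 genes in all.

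The cells were the line CGR8 of strain 129, sampled as whole aggregates (bulk polyA RNA) at days 3, 4, 5, 6 and 7. All aggregates grew in serum-free N2B27 medium with Activin-A, Fgf2 and KSR. Those of one arm were given XAV939 from 0 to 72 h, so treatment ended at day 3. XAV939 inhibits tankyrase, which stabilises Axin and lowers Wnt/β-catenin signalling. The other arm, untreated, carries the note in its titles that no matrigel was used, and the XAV939 titles do not mention matrigel, so a difference in matrigel cannot be told apart from XAV939. Each of the 10 groups had 4 libraries, 40 in all, with 30197759 to 44086019 counts per library. The labels do not say whether the 4 were separate cultures, so p-values measure the spread between these libraries, which may be technical.

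Glycolysis splits glucose into pyruvate, and lactate dehydrogenase turns pyruvate into lactate, whereas pyruvate dehydrogenase passes it to the mitochondria. Cells of the epiblast, the pluripotent tissue of the early embryo, are known to rely strongly on glycolysis, and this reliance lessens in many of the lineages that form from it. Many glycolytic genes are known targets of the hypoxia-inducible factors and of Myc.

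All 6 epiblast markers examined (Pou5f1, Nanog, Fgf5, Dnmt3b, Utf1 and Otx2) had counts in every group. Their summed level was 2845 to 3724 CPM, meaning counts brought to one library size, in XAV939 and 2792 to 3481 CPM in untreated aggregates at day 3, and 103 to 171 and 116 to 219 CPM at day 7. Some libraries stood apart from their group by marker sums. In untreated library 1 of day 4, primitive streak markers (T, Mixl1, Eomes, Mesp1 and Fgf8) summed to 1105 CPM, against 99.8 to 169 CPM in the other 3 libraries of its group. Somitic mesoderm markers summed to 356 CPM in untreated library 1 of day 5, against 19.3 to 78.3 CPM in the others. At day 6, endothelium and blood markers summed to 71.6 CPM in untreated library 1, against 8.38 to 10.5 CPM, and neural progenitor markers to 272 CPM in untreated library 3, against 453 to 579 CPM. Among XAV939 libraries, neuron markers summed to 315 CPM in library 1 of day 6, against 67.3 to 141 CPM in the others. In XAV939 library 1 of day 7 they summed to 716 CPM, against 175 to 443 CPM. Each call of the 10 genes that was gained or lost without one of these libraries is given without it as well.

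**Figure D1:**
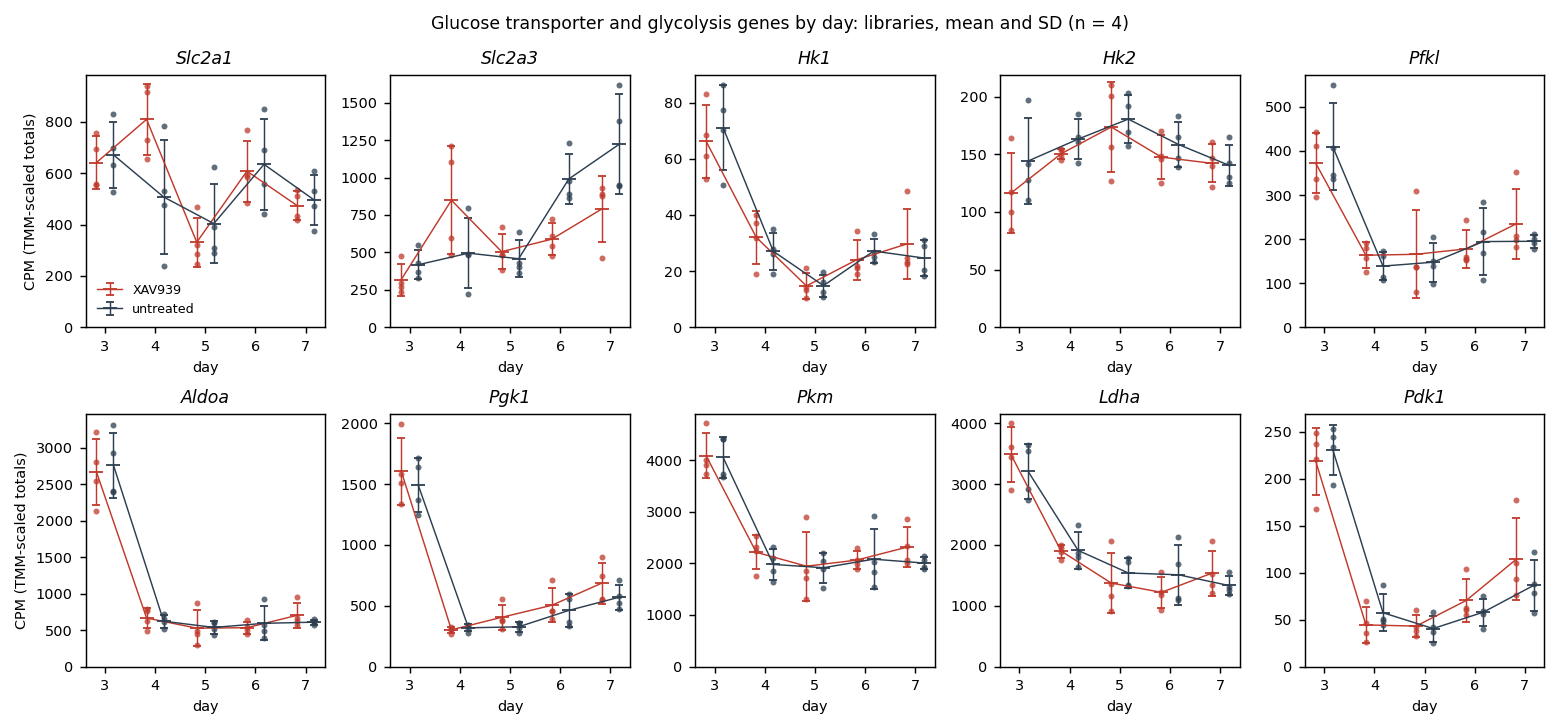
Level of each gene in CPM (counts at one library size, linear axis starting at 0) against day, with XAV939 to the left of untreated at each day. Points are the 4 libraries of a group and bars the mean and SD. Aldoa, Pgk1, Pkm, Ldha, Pdk1, Pfkl and Hk1 stand highest at day 3 in both arms, Slc2a3 stands lowest there in both arms by its mean, and Hk2 varies least.

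The first question was how the 10 genes changed from day 3 to day 7, while the epiblast markers fell. The main change came between day 3 and day 4, a step at which the summed epiblast markers still overlapped between the days. In XAV939 aggregates 7 of the 10 fell (Hk1, Pfkl, Aldoa, Pgk1, Pkm, Ldha and Pdk1) and 1 rose (Slc2a3), where 17.7% of all tested genes fell and 20.3% rose. In untreated aggregates the same 7 fell and none rose, against a background of 15.1% falling and 17.6% rising. A call here means an adjusted p below 0.05 from edgeR's quasi-likelihood test, with Benjamini-Hochberg adjustment over all 16878 genes, and every adjusted p below is of this kind. The median log2 fold change of the 10 was -0.97 in XAV939 and -1.21 in untreated aggregates, against 0.04 and 0.03 over all genes tested. Since RNA came from whole aggregates, fewer cells of a type and less RNA per cell cannot be told apart here.

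Together the 10 genes made up 1.36% ± 0.0962 of the scaled total in XAV939 and 1.35% ± 0.139 in untreated aggregates at day 3 (SD, n = 4). At day 4 the share was 0.713% ± 0.0524 in XAV939 and 0.622% ± 0.0491 in untreated aggregates. At day 7 it was 0.702% ± 0.137 and 0.668% ± 0.0264, about the level of day 4.

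Aldoa (chromosome 7, 126795234 to 126800751, mm10, minus strand) encodes aldolase A, which splits fructose bisphosphate into trioses. It had 628, 756, 783 and 491 CPM in the day 4 XAV939 libraries, against 2797, 3207, 2543 and 2124 CPM at day 3. Untreated libraries had 646, 607, 719.8 and 512 CPM at day 4, against 3310.2, 2926, 2388 and 2410.1 CPM at day 3. Every day 4 library lay below every day 3 library of its arm. The log2 fold change was -2.00 (adjusted p = 4.66e-08, SE 0.241) in XAV939 and -2.15 (adjusted p = 1.83e-08, SE 0.242) in untreated aggregates, 4.01-fold and 4.44-fold lower. The level then stayed low: at day 7 it ranged over 568 to 954 CPM in XAV939 and 564 to 649 CPM in untreated libraries, with no step between later days called.

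Pgk1 (chromosome X, 106187100 to 106203699, plus strand) encodes phosphoglycerate kinase, the first enzyme of the path to make ATP. It had 309.7, 303, 267 and 328 CPM in day 4 XAV939 libraries, against 1341, 1511, 1992 and 1585 CPM at day 3. In untreated libraries the values were 341, 342, 279.5 and 312 CPM at day 4, against 1638, 1371, 1712 and 1243 CPM at day 3. Again no library of day 4 reached any of day 3. The log2 fold changes of Pgk1 were -2.41 (adjusted p = 2.64e-11, SE 0.203) in XAV939 and -2.23 (adjusted p = 2.01e-10, SE 0.202) in untreated aggregates. Its level was higher again at the end. At day 7 it had 900.3, 555, 743 and 548 CPM in XAV939 and 711, 472, 576 and 520.5 CPM in untreated libraries, all above the day 4 libraries of their arm and below those of day 3.

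Pdk1 (chromosome 2, 71873224 to 71903858, plus strand) encodes a kinase that phosphorylates pyruvate dehydrogenase and so keeps pyruvate out of the mitochondria. XAV939 libraries had 25.8, 69.4, 46.7 and 35.3 CPM at day 4, against 168, 236, 249 and 221 CPM at day 3. Untreated libraries had 44.1, 86.3, 50.5 and 48.1 CPM at day 4, against 234, 253, 244 and 193 CPM at day 3. The days did not overlap in either arm, and untreated library 2 was the highest of its group at day 4. Log2 fold changes were -2.30 (adjusted p = 2.27e-07, SE 0.301) in XAV939 and -2.01 (adjusted p = 2.42e-06, SE 0.297) in untreated aggregates. By day 7 the level was 177, 76.5, 111 and 93.3 CPM in XAV939 and 122, 56.6, 78.6 and 88.3 CPM in untreated libraries, with XAV939 library 1 inside the day 3 range of its arm.

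Ldha (chromosome 7, 46841475 to 46855627, plus strand) encodes the lactate dehydrogenase subunit that favours lactate. At day 4 it had 1881, 1954, 2006 and 1759.5 CPM in XAV939 libraries, against 3449, 2897, 4001 and 3608 CPM at day 3. Untreated libraries had 2330.4, 1802, 1874 and 1634 CPM, against 3649.7, 2740.2, 3549 and 2914 CPM at day 3. The groups again stood apart, with log2 fold changes of -0.88 (adjusted p = 0.000858, SE 0.203) and -0.75 (adjusted p = 0.0042, SE 0.203). From day 4 to day 7 the log2 fold change of Ldha was -0.31 (adjusted p = 0.191, SE 0.202) in XAV939 and -0.52 (adjusted p = 0.0298, SE 0.203) in untreated aggregates, where it was called. That call was lost without untreated library 1 of day 4 (-0.41, adjusted p = 0.11) or without library 2, 3 or 4 of day 7 (adjusted p = 0.0767, 0.0557 and 0.0662).

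Pkm (chromosome 9, 59656368 to 59679375, plus strand) encodes pyruvate kinase, the last step, in splice forms that gene counts do not separate. Its mean was 2215 ± 330.1 CPM at day 4 and 4089 ± 439 CPM at day 3 in XAV939 aggregates, and 1979.7 ± 299 and 4055 ± 405 CPM in untreated aggregates (SD, n = 4 each). It fell, with a log2 fold change of -0.88 (adjusted p = 0.000156, SE 0.177) in XAV939 and -1.03 (adjusted p = 2.28e-05, SE 0.177) in untreated aggregates and no later step was called in the fit of all libraries. Pfkl (chromosome 10, 77986947 to 78010083, minus strand), the liver-type subunit of phosphofructokinase at the committed step, averaged 163 ± 29.4 CPM at day 4 and 372 ± 68.03 CPM at day 3 in XAV939 aggregates. In untreated aggregates it averaged 139 ± 32.5 CPM at day 4 and 409.6 ± 98.3 CPM at day 3. Its log2 fold changes were -1.19 (adjusted p = 0.00159, SE 0.293) and -1.56 (adjusted p = 9.27e-05, SE 0.296).

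The hexokinases, which trap glucose by phosphorylation, differed from each other. Hk1 (chromosome 10, 62268855 to 62379908, minus strand), the hexokinase gene of most tissues, had 40.02, 31.9, 37.2 and 18.9 CPM in XAV939 libraries at day 4, against 83.1, 68.4, 60.9 and 52.7 CPM at day 3. Untreated libraries had 19.1, 28.02, 34.9 and 26.2 CPM at day 4, against 86.1, 77.4, 50.5 and 70.2 CPM at day 3. All day 4 libraries were below all day 3 libraries of their arm, with log2 fold changes of -1.05 (adjusted p = 0.00177, SE 0.262) and -1.39 (adjusted p = 9.33e-05, SE 0.264). Hk1 fell once more at day 5, to 21.2, 14.2, 13.1 and 10.4 CPM in XAV939 and 19.5, 16.3, 12.6 and 10.8 CPM in untreated libraries. Hk2 (chromosome 6, 82725025 to 82774454, minus strand), known as the hexokinase of tissues with high glucose use, had 154, 148, 154 and 145 CPM in XAV939 libraries at day 4, against 84.4, 164, 99.7 and 117 CPM at day 3. Untreated libraries had 184, 142, 161 and 165 CPM at day 4, against 128, 197, 109.9 and 141 CPM at day 3. These ranges overlapped in both arms, and neither change was called, at 0.37 (adjusted p = 0.0789, SE 0.168) in XAV939 and 0.18 (adjusted p = 0.444, SE 0.167) in untreated aggregates. Without XAV939 library 2 of day 3, the highest of its group, the change of Hk2 in XAV939 aggregates was called, at 0.58 (adjusted p = 0.00609).

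Neither transporter gene was called lower at day 4. Slc2a3 (chromosome 6, 122727809 to 122801640, minus strand) encodes GLUT3, a high-affinity transporter known from neurons and the early embryo. XAV939 libraries had 1209.6, 593, 485 and 1107 CPM at day 4, against 238, 474, 296 and 266 CPM at day 3, and the days did not overlap. Untreated libraries had 219.7, 479.5, 487 and 794 CPM at day 4, against 428, 547, 366 and 330.1 CPM at day 3, with wide overlap. The log2 fold change was 1.41 (adjusted p = 0.000338, SE 0.301) in XAV939 and 0.24 (adjusted p = 0.567, SE 0.296) in untreated aggregates. The test of the difference between these changes, added after the values were seen, gave 1.17 (SE 0.420, unadjusted p = 0.00855) and was not called, as for 0% of all genes (491 genes had an unadjusted p below 0.05, and DESeq2 called 0). Slc2a1 (chromosome 4, 119108711 to 119137983, plus strand) encodes GLUT1, the transporter of basal uptake in most cells. It had 916, 728, 938 and 657 CPM in XAV939 libraries at day 4, against 695, 758, 558 and 555 CPM at day 3. Untreated libraries had 239.9, 475, 783 and 532 CPM at day 4, against 831, 698, 526 and 631 CPM at day 3, with library 1 lowest at day 4. Neither change was called, at 0.34 (adjusted p = 0.309, SE 0.254) and -0.40 (adjusted p = 0.234, SE 0.254), though the untreated change was called without its library 3 of day 4 (-0.69, adjusted p = 0.0417).

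**Figure D2:**
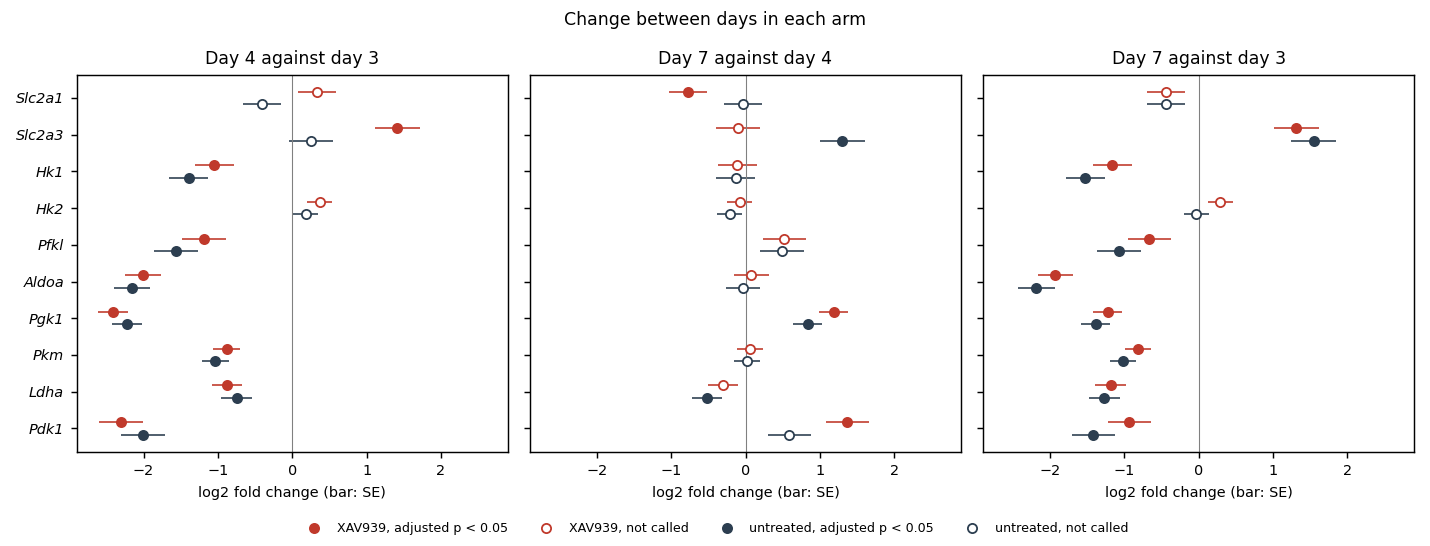
Log2 fold change of each gene (x axis, bar: SE) in 3 comparisons of days, with XAV939 above untreated in each row. Filled points passed an adjusted p of 0.05 in edgeR's quasi-likelihood test. Between day 4 and day 3, 7 genes lie left of 0 and are filled in both arms, and Pgk1 lies right of 0 between day 7 and day 4 in both.

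The hypoxia-factor core motifs ACGTG and GCGTG were searched on both strands, read as CACGT and CACGC on the other strand, overlaps allowed, in the RefSeq promoter windows of GRCm38.p6, from 250 bases before to 50 after the start. Where a gene has several windows, the one nearest its annotated start was taken, and those of Aldoa and Ldha lie within the annotated gene, as do those of Hk1 and Pfkl. Windows were found for 9 of the 10 genes, Slc2a3 being the one without, and 8 of them held a match, Pkm being the one that did not. Among all 32851 windows 43.8% held one, and among the 16269 windows of tested genes 58.9%. The longer E-box CACGTG was in none of the 9 windows and in 7.15% of all. Shown are 4 genes that fell together at day 4 and Hk2, which was not called at day 4, with each match in capitals. A match describes the letters and not binding. Pgk1 and Hk2 each hold 2 of the ACGTG kind and Aldoa 1, and Ldha and Pdk1 hold 2 of the GCGTG kind.
Aldoa promoter, chr7:126799129-126799428 (minus strand): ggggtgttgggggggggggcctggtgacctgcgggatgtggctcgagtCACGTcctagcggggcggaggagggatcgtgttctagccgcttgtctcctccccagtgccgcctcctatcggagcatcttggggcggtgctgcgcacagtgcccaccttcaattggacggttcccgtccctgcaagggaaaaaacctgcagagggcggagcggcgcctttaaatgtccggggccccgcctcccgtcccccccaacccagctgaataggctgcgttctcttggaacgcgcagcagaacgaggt
Pgk1 promoter, chrX:106186850-106187149 (plus strand): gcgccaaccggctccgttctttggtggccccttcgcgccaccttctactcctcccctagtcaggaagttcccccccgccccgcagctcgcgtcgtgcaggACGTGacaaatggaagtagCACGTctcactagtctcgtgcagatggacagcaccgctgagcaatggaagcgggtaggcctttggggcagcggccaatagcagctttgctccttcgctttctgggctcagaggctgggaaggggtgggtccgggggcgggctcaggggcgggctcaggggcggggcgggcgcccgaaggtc
Ldha promoter, chr7:46846832-46847131 (plus strand): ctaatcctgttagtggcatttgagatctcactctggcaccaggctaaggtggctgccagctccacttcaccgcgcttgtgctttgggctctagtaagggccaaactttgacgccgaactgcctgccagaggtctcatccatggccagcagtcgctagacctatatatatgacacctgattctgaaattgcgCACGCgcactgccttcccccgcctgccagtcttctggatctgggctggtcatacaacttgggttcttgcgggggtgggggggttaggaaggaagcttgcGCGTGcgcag
Pdk1 promoter, chr2:71872974-71873273 (plus strand): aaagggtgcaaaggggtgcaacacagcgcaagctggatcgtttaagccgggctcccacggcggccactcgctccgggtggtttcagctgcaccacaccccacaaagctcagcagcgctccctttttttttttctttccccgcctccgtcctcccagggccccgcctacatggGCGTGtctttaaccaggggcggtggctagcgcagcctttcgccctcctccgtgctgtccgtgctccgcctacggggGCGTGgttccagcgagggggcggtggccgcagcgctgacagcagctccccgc
Hk2 promoter, chr6:82774405-82774704 (minus strand): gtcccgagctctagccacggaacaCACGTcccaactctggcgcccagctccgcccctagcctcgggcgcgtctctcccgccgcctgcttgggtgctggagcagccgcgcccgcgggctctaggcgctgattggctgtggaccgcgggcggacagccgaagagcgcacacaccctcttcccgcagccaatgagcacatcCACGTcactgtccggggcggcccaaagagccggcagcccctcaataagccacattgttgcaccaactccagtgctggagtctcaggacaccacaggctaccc

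By day 7, 7 of the 10 genes were below day 3 in XAV939 aggregates, where 34.1% of all genes fell, and 1 was above, where 36.8% rose. In untreated aggregates the same 7 fell, against 32.6% of all genes, and Slc2a3 rose, against 34.7%. The median log2 fold change of the 10 was -0.88 in XAV939 and -1.17 in untreated aggregates, with 0.04 and 0.03 over all genes. Aldoa had a log2 fold change of -1.93 (adjusted p = 1.15e-08, SE 0.240) in XAV939 and -2.18 (adjusted p = 1.09e-09, SE 0.242) in untreated aggregates. Slc2a3 had 888, 878, 932 and 464 CPM in XAV939 and 948, 1618, 1378 and 942 CPM in untreated libraries at day 7. In XAV939 aggregates library 4 of day 7 lay inside the day 3 range, and in untreated aggregates no day 7 library did. Its log2 fold change against day 3 was 1.31 (adjusted p = 0.000239, SE 0.301) in XAV939 and 1.55 (adjusted p = 3.26e-05, SE 0.302) in untreated aggregates. The fall of Pfkl in XAV939 aggregates, -0.66 (adjusted p = 0.0408, SE 0.290), was the least firm. It was lost with library 1 or 2 of day 3 or library 2, 3 or 4 of day 7 left out, at adjusted p-values of 0.106, 0.0827, 0.0924, 0.102 and 0.116. With XAV939 library 2 of day 3 left out, Hk2 was called higher at day 7 in that arm (0.50, adjusted p = 0.00777).

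Changes between day 4 and day 7 were fewer in the fit of all libraries, and near or below the shares of all genes. In a comparison of day 7 with day 4, added after the values were seen, 2 of the 10 rose in XAV939 aggregates (Pgk1 and Pdk1) and 1 fell (Slc2a1), against 29% and 28.8% of all genes. In untreated aggregates Pgk1 and Slc2a3 rose and Ldha fell, against 27.4% and 26.7%. Pgk1 rose, with a log2 fold change of 1.19 (adjusted p = 4e-06, SE 0.196) in XAV939 and 0.84 (adjusted p = 0.000438, SE 0.195) in untreated aggregates. For Pdk1 the values were 1.37 (adjusted p = 0.000159, SE 0.293) and 0.59 (adjusted p = 0.0818, SE 0.288), the second called only without library 2 of untreated day 4 or library 2 of day 7 among the libraries left out. Slc2a1 had -0.77 (adjusted p = 0.00991, SE 0.255) and -0.03 (adjusted p = 0.921, SE 0.253), and Slc2a3 -0.10 (adjusted p = 0.786, SE 0.296) and 1.30 (adjusted p = 0.000411, SE 0.3005). Untreated Pdk1 was also called higher with library totals in place of TMM (adjusted p = 0.041). Pfkl averaged 235 ± 79.3 CPM at day 7 and 163 ± 29.4 CPM at day 4 in XAV939 aggregates, and 195 ± 14.5 and 139 ± 32.5 CPM in untreated aggregates, where the days did not overlap. It was not called, at 0.52 (adjusted p = 0.121, SE 0.290) and 0.49 (adjusted p = 0.154, SE 0.290), but was called higher in both arms with the replicate block (0.49 and 0.53, adjusted p = 0.036 and 0.0248) and in fits of only the compared libraries (adjusted p = 0.047 and 0.0141). Aldoa, Pkm and Hk1 stayed within their spread in both arms, with log2 fold changes between -0.13 and 0.08.

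At single steps after day 4, the number of the 10 genes called was near or below the share of all genes, given in brackets. Between day 5 and day 4, Slc2a1 and Hk1 fell in XAV939 aggregates (31% of all genes changed), at -1.29 (adjusted p = 0.000232, SE 0.258) and -1.12 (adjusted p = 0.00141, SE 0.265), and Hk1 alone fell in untreated aggregates (18.7%), at -0.87 (adjusted p = 0.0175, SE 0.264). Slc2a1 had 468, 286, 322 and 248 CPM in XAV939 libraries at day 5, below all 4 of day 4. Replicate numbers paired the libraries of these XAV939 days, and blocking on them Ldha fell as well (-0.52, adjusted p = 0.00644). Library 1 of day 5 XAV939 held the highest value of its group for each of the 10 genes. Without it 6 genes fell at this step, Aldoa (-0.70, adjusted p = 0.0145), Pkm (-0.44, adjusted p = 0.0391), Ldha (-0.73, adjusted p = 0.00517) and Slc2a3 (-0.91, adjusted p = 0.0289) besides Slc2a1 and Hk1. Slc2a3 was also called lower without library 2 or 3 of day 4 (adjusted p = 0.0375 and 0.0223) and with relative log expression factors or DESeq2 (-0.76, adjusted p = 0.048 and 0.0392), and Pgk1 higher without library 3 of day 5 (0.53, adjusted p = 0.0478). In untreated aggregates the step of Hk1 was lost without library 3 of day 4 or library 3 or 4 of day 5 (adjusted p = 0.0844, 0.0631 and 0.0699).

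Between day 6 and day 5, Slc2a1 rose in XAV939 aggregates (17% of genes changed), at 0.88 (adjusted p = 0.0144, SE 0.255), with 483, 587, 769 and 594 CPM at day 6. With the replicate block Hk1 rose too (0.71, adjusted p = 0.0128). Without library 4 of day 5 or library 3 of day 6 the call of Slc2a1 was lost (adjusted p = 0.0563 and 0.0531), and without library 1 of day 5 Hk1 and Pdk1 rose besides it (0.93 and 0.91, adjusted p = 0.0215 and 0.0468). In untreated aggregates Hk1 and Slc2a3 rose (19.8%), at 0.87 (adjusted p = 0.0157, SE 0.264) and 1.11 (adjusted p = 0.00643, SE 0.299). Slc2a3 reached 975, 1233, 863 and 891 CPM, above all 4 libraries of day 5. The step of Hk1 was lost without library 3 or 4 of day 5 or library 1 of day 6 (adjusted p = 0.0517, 0.0759 and 0.0601), and Slc2a1 was called without library 1 of day 5 or of day 6 (0.94 and 0.79, adjusted p = 0.00806 and 0.0365), as Pgk1 was without library 2 or 4 of day 6 and with the replicate block (0.47, adjusted p = 0.0318). Between day 7 and day 6 none of the 10 was called in XAV939 (7.16% of all genes) or untreated aggregates (12.2%) by edgeR, with an unadjusted p below 0.05 for 2 and 0 of them, and DESeq2 called 0 and 0. Without library 1 of day 6 XAV939, Pgk1 and Pdk1 rose there (0.66 and 0.95, adjusted p = 0.0337 and 0.0487).

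At the step where 7 of the 10 genes fell, the summed level of the epiblast markers overlapped between the days in both arms. Over the 6 markers, XAV939 libraries had 2846, 3495, 4311 and 2048 CPM at day 4, against 3724, 2845, 3114 and 2883 CPM at day 3. Untreated libraries had 2901, 3069, 3919.6 and 2599.8 CPM at day 4, against 3481, 2908, 2792 and 3188 CPM at day 3. Among single markers, Nanog rose in both arms, at 1.02 and 1.12 (adjusted p = 0.0373 and 0.0262), Utf1 fell in untreated aggregates, at -1.77 (adjusted p = 0.00827, SE 0.521), and Pou5f1, Fgf5, Dnmt3b and Otx2 were not called in either. At day 5 the sum was 440.0 to 1100.0 CPM in XAV939 and 839.6 to 1548 CPM in untreated libraries, below day 4 throughout. From day 4 to day 7 all 6 markers fell in each arm, against 28.8% of all genes in XAV939 and 26.7% in untreated aggregates. The 10 glycolysis genes had a median log2 change of -0.01 in both arms over that time.

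Markers of other cell types over the same step are given here as medians of the summed level at day 4 against day 3. At this step 20.3% of all tested genes rose and 17.7% fell in XAV939, and 17.6% and 15.1% in untreated aggregates. A count of 1 or 2 in lists this short is not far from these shares. The 6 neural progenitor markers summed to 214 against 288 CPM in XAV939 and 220.2 against 290.2 CPM in untreated aggregates, and 5 of them rose and 1 fell with XAV939 and 2 rose and 1 fell without, the one that fell being Nes. For the 6 neuron markers the sums were 154 against 68.03 CPM in XAV939 and 143 against 66.5 CPM in untreated aggregates, with 4 and 3 rising. The 5 primitive streak markers had 65.8 against 9.45 CPM in XAV939 and 151 against 13.4 CPM in untreated aggregates, with 2 rising in XAV939 and 5 in untreated aggregates. The 5 endoderm markers had 256 against 592 CPM in XAV939 and 284 against 547 CPM in untreated aggregates, with 2 falling in each arm and 2 rising in untreated aggregates. Somitic mesoderm markers had 3.07 against 2.39 CPM in XAV939 and 1.96 against 2.84 CPM in untreated aggregates, endothelium and blood 14.8 against 16.5 CPM in XAV939 and 10.8 against 16.5 CPM in untreated aggregates, cardiac muscle 24.7 against 58.1 CPM in XAV939 and 26.97 against 66.7 CPM in untreated aggregates, and muscle and germ cells 6.13 against 17.7 CPM in XAV939 and 7.65 against 20.98 CPM in untreated aggregates. In the last of these both tested genes fell in each arm, and of the cardiac markers 1 fell in XAV939 and 3 fell and 1 rose in untreated aggregates. The blood globin gene Hbb-bh1 was at 0 in all 16 of these libraries and the somite gene Msgn1 in the XAV939 libraries of day 4. The part of any of these cell types in the fall of the glycolysis genes was not tested.

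**Figure D3:**
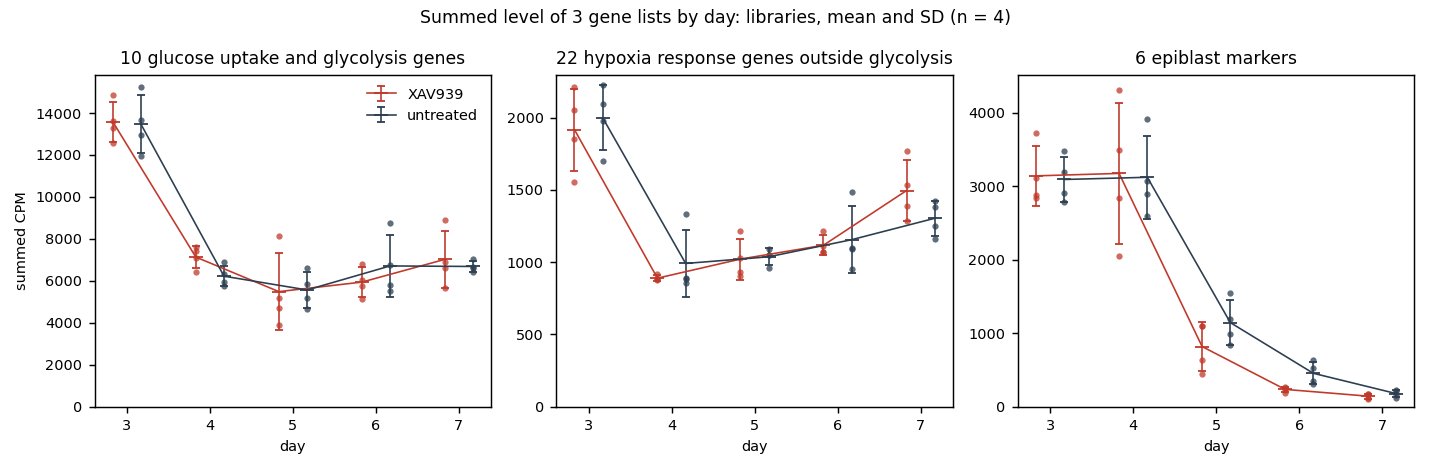
Summed CPM (linear axis starting at 0) of 3 gene lists against day, with XAV939 to the left of untreated. Points are the 4 libraries of a group and bars the mean and SD. The glycolysis sum and the hypoxia sum drop between day 3 and day 4, and the epiblast sum drops between day 4 and day 5.

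Most of 22 hypoxia response genes outside glycolysis fell at the same step. At day 4, 18 fell in XAV939 and 17 in untreated aggregates and none rose, where 17.7% and 15.1% of all genes fell, with medians of -1.48 and -1.35 on the log2 scale. Their sum was 916, 879.7, 879.5 and 878 CPM in XAV939 libraries at day 4, against 1553, 2209.8, 2052 and 1851 CPM at day 3. Untreated libraries had 1333, 888, 886 and 854 CPM, against 2096, 2224, 1978 and 1697 CPM at day 3. Day 4 lay below day 3 throughout in both arms, with untreated library 1 the highest at day 4. Egln3, an oxygen-dependent prolyl hydroxylase, fell, at -2.75 (adjusted p = 1.09e-10, SE 0.246) in XAV939 and -2.63 (adjusted p = 3.36e-10, SE 0.245) in untreated aggregates, and Car9, a carbonic anhydrase, at -3.28 (adjusted p = 3.49e-09, SE 0.346) and -3.32 (adjusted p = 1.85e-09, SE 0.334). Fam162a, a mitochondrial protein gene, fell, at -1.80 (adjusted p = 8.5e-08, SE 0.224) and -1.43 (adjusted p = 5.17e-06, SE 0.221), and the transcription factor gene Bhlhe40, at -1.28 (adjusted p = 0.00211, SE 0.325) and -0.92 (adjusted p = 0.0252, SE 0.322).

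Many genes of this list were higher again by day 7. From day 4 to day 7, 15 of the 22 rose and 1 fell in XAV939 aggregates, and 14 rose and 3 fell in untreated aggregates, where 29% and 27.4% of all genes rose and 28.8% and 26.7% fell. The medians were 0.91 and 0.62. At day 7 the sum was 1769.7, 1286, 1533 and 1390 CPM in XAV939 and 1425, 1156, 1252 and 1378 CPM in untreated libraries. Against day 3, 12 of the 22 were lower and 7 higher in XAV939 aggregates, and 13 lower and 3 higher in untreated aggregates, where 34.1% and 32.6% of all genes were lower and 36.8% and 34.7% higher. Hif1a, the gene of the oxygen-regulated factor subunit, rose at day 4, at 0.44 (adjusted p = 0.00343, SE 0.118) and 0.60 (adjusted p = 0.000142, SE 0.119), and was named after its values were seen. Oxygen was not measured, and the part of any factor in the falls was not tested.

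Most of the other glycolytic enzymes fell too. Of 11 tested (Gpi1, Pfkm, Pfkp, Aldoc, Tpi1, Gapdh, Pgam1, Eno1, Eno1b, Eno2 and Eno3), 7 fell and 2 rose at day 4 in XAV939 and 8 fell and 1 rose in untreated aggregates, where 17.7% and 15.1% of all genes fell. At day 7, 9 fell and 2 rose in each arm against day 3, where 34.1% and 32.6% of all genes fell. Gpi1, which turns glucose phosphate into fructose phosphate, fell, at -1.03 (adjusted p = 1.06e-07, SE 0.144) in XAV939 and -1.28 (adjusted p = 1.69e-09, SE 0.145) in untreated aggregates, Pfkp, at -1.70 (adjusted p = 0.000143, SE 0.373) and -2.67 (adjusted p = 2.31e-07, SE 0.387), and Eno1, at -0.96 (adjusted p = 2.38e-06, SE 0.160) and -1.01 (adjusted p = 1.08e-06, SE 0.160). Those that rose were enolase genes, Eno3, at 1.08 (adjusted p = 1.64e-09, SE 0.122) and 1.10 (adjusted p = 1.16e-09, SE 0.122), and Eno2, at 1.98 (adjusted p = 9.63e-06, SE 0.359) and 1.72 (adjusted p = 7.43e-05, SE 0.356), the second named after its values were seen. Eno1 and Eno1b are near-identical copies, so their separate counts are uncertain.

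Other transporters and isozymes were mixed: of 16 tested, 10 rose and 5 fell from day 3 to day 7 in XAV939 and 8 rose and 4 fell in untreated aggregates. Of all genes 36.8% and 34.7% rose and 34.1% and 32.6% fell, so the falls were near or below that share. Slc2a4, the insulin-responsive transporter, averaged 11.3 ± 1.02 CPM at day 7 and 2.22 ± 0.718 CPM at day 3 in XAV939 aggregates, and 10.9 ± 0.784 and 2.26 ± 0.384 CPM in untreated aggregates (SD, n = 4 each). Slc2a10 averaged 3.09 ± 0.637 and 0.130 ± 0.0270 CPM in XAV939 aggregates, and 2.82 ± 0.822 and 0.131 ± 0.0642 CPM in untreated aggregates at the same days. Ldhc, a lactate dehydrogenase gene of the testis, fell to 0.127 ± 0.0575 CPM, against 13.4 ± 1.92 CPM at day 3, in XAV939 aggregates, and to 0.245 ± 0.0392 CPM, against 11.4 ± 1.06 CPM, in untreated aggregates.

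Downstream of pyruvate, 6 of 15 genes of lactate and pyruvate handling fell and 3 rose by day 7 in XAV939 aggregates, and 8 fell and 2 rose in untreated aggregates. The count that fell in XAV939 aggregates was near the 34.1% of all genes, and 32.6% fell in untreated aggregates. The lactate transporter gene Slc16a3 fell, at -1.81 (adjusted p = 4.2e-07, SE 0.271) in XAV939 and -2.19 (adjusted p = 1.42e-08, SE 0.275) in untreated aggregates, and Slc16a7, at -1.90 (adjusted p = 6.39e-07, SE 0.292) and -2.15 (adjusted p = 8.27e-08, SE 0.295). Slc16a1, another lactate transporter gene, rose, at 0.47 (adjusted p = 0.019, SE 0.177) and 1.23 (adjusted p = 2.48e-07, SE 0.179). Dlat, a core subunit of pyruvate dehydrogenase, fell, at -0.62 (adjusted p = 2.04e-05, SE 0.118) and -0.63 (adjusted p = 1.74e-05, SE 0.117). In the pentose phosphate branch 5 of 7 genes fell and 1 rose in each arm, against the same shares. G6pdx, its entry enzyme, fell, at -1.46 (adjusted p = 7.74e-13, SE 0.119) and -1.19 (adjusted p = 9.6e-11, SE 0.118), as did Pgd, at -1.57 (adjusted p = 4.39e-12, SE 0.137) and -1.41 (adjusted p = 4.94e-11, SE 0.137), and Taldo1, and Rpia rose, at 0.54 (adjusted p = 0.000584, SE 0.135) and 0.47 (adjusted p = 0.00286, SE 0.135).

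Of 12 regulators, 4 rose and 5 fell by day 7 in XAV939 aggregates, and 4 rose and 6 fell in untreated aggregates, near the shares of all genes in XAV939 aggregates (36.8% rose and 34.1% fell), with 34.7% and 32.6% in untreated aggregates. Txnip, whose product restrains glucose uptake, fell, at -1.79 (adjusted p = 1.28e-11, SE 0.146) and -1.30 (adjusted p = 1.41e-08, SE 0.144) already at day 4. Mycn fell, at -0.99 (adjusted p = 3.28e-05, SE 0.196) and -1.14 (adjusted p = 4.71e-06, SE 0.196) at day 7 and the pluripotency factor gene Esrrb, at -3.04 (adjusted p = 4.37e-06, SE 0.523) and -3.58 (adjusted p = 3.8e-07, SE 0.532). Epas1, which encodes another hypoxia-inducible factor subunit, rose, at 1.42 (adjusted p = 0.00113, SE 0.376) and 2.04 (adjusted p = 1.37e-05, SE 0.376).

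The balance of related genes was compared per transcript length. Slc2a3 over Slc2a1 was 1.37, 1.67, 1.502 and 0.915 in XAV939 libraries at day 7, against 0.282, 0.515, 0.436 and 0.395 at day 3. In untreated libraries it was 2.09, 2.19, 2.402 and 1.46, against 0.424, 0.645, 0.573 and 0.431 at day 3. Slc2a1 thus gave more RNA per length in all 8 libraries of day 3, and Slc2a3 in 7 of 8 at day 7. The course between was not steady in XAV939 aggregates, with geometric means of 1.27 at day 5 and 0.797 at day 6. Hk2 over Hk1 was 2.35, 4.201, 5.37 and 4.42 in XAV939 libraries at day 7, against 0.788, 1.86, 1.27 and 1.72 at day 3, and 3.25, 5.31, 5.37 and 4.43, against 1.15, 1.98, 1.69 and 1.56, in untreated libraries. Its geometric mean was highest at day 5, at 9.26 in XAV939 and 9.63 in untreated aggregates. Ldhb, the other main lactate dehydrogenase subunit, stood against Ldha with geometric means of 0.0651 at day 7 and 0.121 at day 3 in XAV939 aggregates, and 0.0715 and 0.133 in untreated aggregates. In each of these 6 comparisons the days did not overlap, and the two-sided exact permutation test gave p = 0.0286, the smallest that 4 against 4 libraries allow. Adjusted over the 27 ratio tests computed, p was 0.0857, so none passed. None could pass unless most of the 27 reached that smallest p, so this does not show equal ratios.

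**Figure D4:**
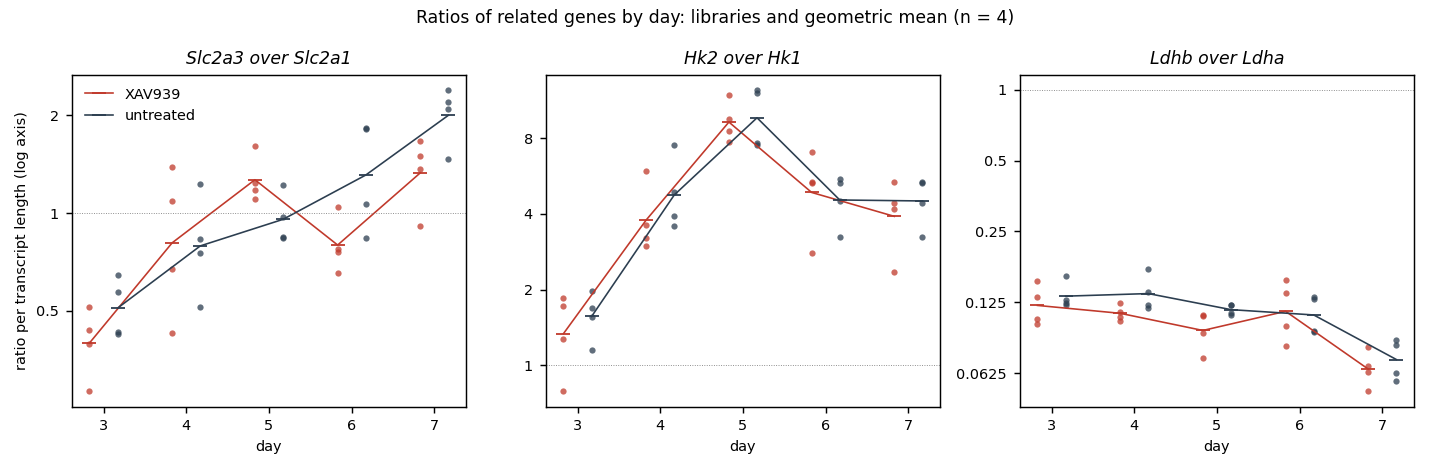
Ratio of 3 pairs of related genes per transcript length (log axis) against day, with XAV939 to the left of untreated. Points are the 4 libraries of a group and horizontal marks with lines the geometric mean, and the dotted line marks a ratio of 1. By geometric mean, Slc2a3 over Slc2a1 lies below 1 at day 3 and above 1 at day 7 in both arms. In XAV939 it lies above 1 at day 5 and below 1 again at day 6. Hk2 over Hk1 is highest at day 5, and Ldhb over Ldha is lowest at day 7.

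Levels between genes can be compared per kilobase of transcript. At day 3 in XAV939 aggregates the order was Ldha (1922 ± 252 CPM per kb), Aldoa (1722 ± 293) and Pkm (1681 ± 180.3), which did not differ beyond their SD, then Pgk1 (881 ± 151), Slc2a1 (197 ± 31.2), Pfkl, Slc2a3 (these within their SD of each other), Pdk1, Hk2 and Hk1 (15.5 ± 3.02), the last pair within the SD of Hk2. At day 3 in untreated aggregates Aldoa and Ldha changed places, within their SD, and the rest kept this order. At day 7 the order in both arms was Pkm, Ldha, Aldoa, Pgk1, Slc2a3, Slc2a1, Pfkl, Hk2, Pdk1 and Hk1. Within their SD of each other were Pkm and Ldha, Aldoa and Pgk1, Slc2a3 and Slc2a1, and Hk2 and Pdk1 in XAV939 aggregates, and Pgk1 and Slc2a3 in untreated aggregates. Pkm then stood at 951 ± 159.6 CPM per kb in XAV939 and 825 ± 48.8 in untreated aggregates, above Aldoa at 453 ± 111 and 392.4 ± 22.5.

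Over the 40 libraries the log2 levels of the 7 falling genes correlated with each other at Pearson r of 0.69 (Ldha and Pdk1) to 0.96 (Aldoa and Pkm). Slc2a3 and Hk2 had r between -0.53 and -0.22 with them. Libraries of one group and arm share a day, so these values describe the time course and are not independent. Among all other tested genes, the one most like Aldoa was Gpi1 (r = 0.983), followed by Egln3 (0.959) and Pgm1 (0.955). Most like Pkm were Galk1 (0.974), Gapdh (0.962) and Gpi1 (0.943). Pdk1 was closest to Bnip3 (0.968), a mitophagy receptor gene, and Pgk1 to Prelid2 (0.968), Tpi1 (0.952) and Bnip3 (0.944). Hk1 was most like Capn5 (0.944), Ldha most like Chmp2a (0.941) and Pfkl most like Ndufa4l2 (0.924). The nearest genes were less close for Slc2a3 (Dmbx1, 0.817), Hk2 (Trmt1l, 0.805) and Slc2a1 (Rnf112, 0.788).

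The second question was what the inhibitor changed. At no day was any of the 10 genes called between XAV939 and untreated aggregates by edgeR, where 0.00592%, 0.0178%, 2.34%, 4.34% and 0.00592% of all genes were called at days 3, 4, 5, 6 and 7. An unadjusted p below 0.05 was reached by 0, 2, 0, 1 and 1 of the 10. The log2 fold changes ran from -0.75 to 0.78, with SEs of 0.167 to 0.297. None of these differences was resolved at this spread, so the lack of calls does not show equal levels. Replicate numbers paired the arms within a day, and blocking on them in each day gave calls for other numbers of genes. The counts over all genes were then 0, 0, 1240, 1727 and 381. None of the 10 was called in that fit either, and the lowest adjusted p was 0.0671, for Slc2a3 at day 6. DESeq2 called 0 of the 10 at every day.

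The values of the transporter genes were as follows. Slc2a3 had 613, 541, 726 and 473 CPM in XAV939 libraries, against 975, 1233, 863 and 891 CPM in untreated libraries at day 6. The arms did not overlap then, nor at day 7. The log2 fold change was -0.75 (adjusted p = 0.171, SE 0.297) at day 6 and -0.63 (adjusted p = 0.595, SE 0.297) at day 7, after 0.78 (adjusted p = 0.563, SE 0.297) at day 4. Slc2a1 had 0.67 (adjusted p = 0.544, SE 0.255) at day 4. Without untreated library 1, which was lowest for both transporters and stood apart by its streak markers, the day 4 values were 0.53 for Slc2a3 and 0.44 for Slc2a1. For the change between day 3 and day 7 the difference between arms was not called for any of the 10 or for any other gene (0%, where 718 genes had an unadjusted p below 0.05, none of them among the 10, and DESeq2 called 1 gene).

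**Figure D5:**
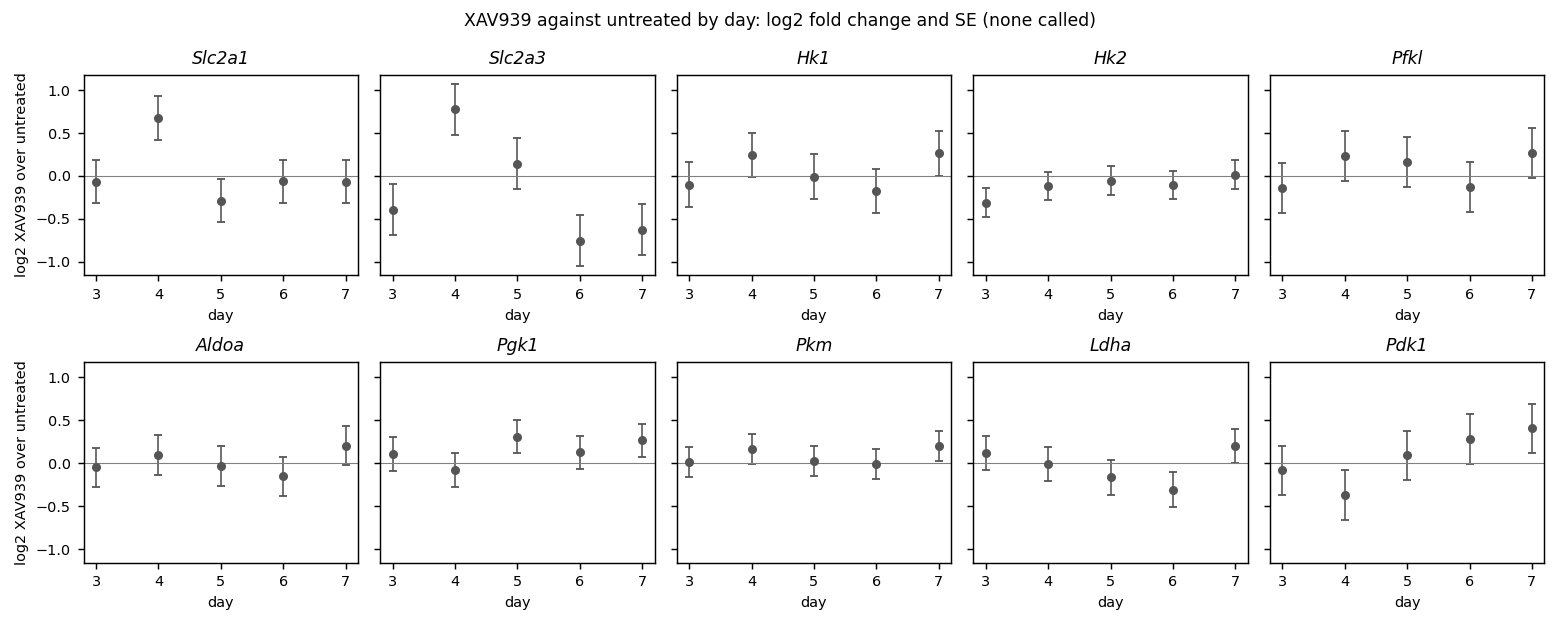
Log2 fold change of XAV939 over untreated (y axis, bar: SE) for each of the 10 genes against day. None passed an adjusted p of 0.05. Slc2a3 lies above 0 at day 4 and below 0 at days 6 and 7, and the 8 genes other than the transporters lie within 0.5 of 0 at every day.

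Among the other lists, genes called between the arms were few, and those given here were chosen after their values were seen. Slc16a1 averaged 330.0 ± 52.3 CPM in XAV939 and 749.6 ± 161 CPM in untreated aggregates at day 6 (SD, n = 4 each), -1.18 (adjusted p = 0.000217, SE 0.179) on the log2 scale, and Pdk4, another kinase of pyruvate dehydrogenase, had -2.10 (adjusted p = 0.0173, SE 0.541). Slc2a12 was higher with XAV939 at day 6, at 0.95 (adjusted p = 0.037, SE 0.271), as was Car9, at 1.25 (adjusted p = 0.0373, SE 0.359). Epas1 was lower at days 5 and 6, at -1.51 (adjusted p = 0.0251, SE 0.379) and -1.84 (adjusted p = 0.00278, SE 0.371), and Egln3 and Hkdc1 at day 5, at -0.92 (adjusted p = 0.03, SE 0.237) and -2.65 (adjusted p = 0.0106, SE 0.586). Epiblast markers summed to 184 to 273 CPM in XAV939 and 311 to 629 CPM in untreated libraries at day 6, with 1 of 6 lower. Of all 16878 tested genes, 235 were higher and 498 lower with XAV939 at that day. Neural progenitor markers summed to 536 to 900.3 and 272 to 579 CPM, with 3 of 6 higher. Neuron markers summed to 315, 90.3, 67.3 and 141 CPM in XAV939 libraries, library 1 being highest, and 38.0 to 64.1 CPM in untreated libraries. Of these markers 4 of 6 were higher. The part of these cell types in these differences was not tested. All of the calls between arms in this paragraph were lost in fits of only the compared libraries, which called 0 of all genes at days 5 and 6.

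The other Aldoa identifier (ENSMUSG00000114515, chromosome 7, 126800790 to 126809108) lies upstream of the main gene without overlapping it and was near 1 to 2 CPM. It averaged 1.79 ± 0.242 CPM at day 4 and 0.966 ± 0.0521 CPM at day 3 in XAV939 aggregates, and 1.63 ± 0.362 and 1.25 ± 0.304 CPM in untreated aggregates (SD, n = 4 each). Its log2 fold change was 0.89 (adjusted p = 0.00318, SE 0.237) in XAV939 and 0.38 (adjusted p = 0.217, SE 0.233) in untreated aggregates, opposite in sign to the main gene. It is not among the 10 counted above. How reads shared with near-identical copies were counted is not given in the sources used here, which bears on Pgk1, Ldha and Aldoa, whose pseudogenes are many. Whether the counting used strand is not given either, and the genes on the opposite strand that the table holds were low, at 10.97 CPM for Fam57b across from Aldoa (1021 CPM) and 0.575 CPM for Hk1os across from Hk1 (33.1 CPM).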

How the data were processed

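RNA from whole aggregates was measured by polyA RNA sequencing in 40 libraries, 4 in each of 10 groups (XAV939 and untreated, days 3 to 7). Per the labels' protocols, 300 ng of RNA went into a stranded TruSeq kit with a target of 36 M read pairs of 81 bases. The deposited values are raw counts per gene that the authors made. bcl2fastq 2.20.0 and mm10 are named in the submitters' processing notes, while the sources used here give no aligner, counter or strand setting. Library totals ran from 30197759 to 44086019 counts (median 35737152), and every row names a gene.

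Counts were fitted in edgeR 4.0.16 (limma 3.58.1, R 4.3.3) with TMM scaling, filterByExpr (minimum count 10, minimum total 15) and the robust quasi-likelihood test, in one fit over the 40 libraries with a mean per group (30 residual degrees of freedom). Benjamini-Hochberg adjustment ran over the 16878 tested genes. The fit was tested on counts simulated without pairing, with known changes in a small set of genes of untreated day 7. That test does not cover paired libraries or changes in most genes. CPM values were computed here from TMM-scaled totals, and log2 CPM with a prior count of 2. Ratios used a pseudocount of 1 count and transcript lengths of GENCODE M21. Python 3.11.15, numpy 2.4.6, pandas 2.3.3 and scipy 1.17.1 made the tables.

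The 10 genes, the companion lists and the marker lists were chosen with earlier results of these data known. Genes named besides the 10 are, of each list, the 4 tested genes with the smallest adjusted p between day 7 and day 3 in untreated aggregates, the genes of the ratios, and the 3 genes most like each of the 10. Exceptions are said beside the value, and 1 gene under this rule is not reported here. Alternatives were DESeq2 1.42.0, other scalings, no filter, replicate blocks, fits of only the compared libraries and each library left out. Same-numbered libraries of both arms deviated together within each day (correlations of deviations 0.145 to 0.523, over 0.1 in 20 of 20 pairs, from the data and not from a label). The main fit did not pair them, so its values between arms leave this pairing out. They were taken as pairs only in the alternatives with replicate blocks. Among neighbouring days of one arm 26 of 32 pairs passed 0.1. The comparisons of day 7 with day 4, and of the arms in the change between day 3 and day 4, were added after seeing the data. No libraries of one group agreed within sampling noise.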

Additional observations from a re-analysis of the deposited data

Results flagged for a closer look

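In 6 of the 100 sets of 4 libraries (10 genes in 10 groups) a single library lay far from the other 3 by Dixon's criterion, where chance gives about 1 in 20. Slc2a3 had 464 CPM in XAV939 library 4 at day 7, below 878 to 932 CPM in the others. Library 1 of XAV939 accounted for 4 of the 6. At day 7 it had 48.4 CPM for Hk1, above 22.4 to 24.6 CPM, and 353 CPM for Pfkl, above 183 to 207 CPM. At day 6 it had 243 CPM for Pfkl, above 153 to 159.8 CPM, and 104 CPM for Pdk1, above 54.9 to 61.8 CPM. Pdk1 had 86.3 CPM in untreated library 2 at day 4, above 44.1 to 50.5 CPM in the others.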

How the results depend on the processing

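No called value of a single gene changed sign under any alternative run, and of 2950 alternative values of single genes 146 changed sign where neither value was called. The number that fell at day 4 was 7 in XAV939 aggregates under every alternative, and 7 in untreated aggregates except without library 3 of untreated day 4, where it was 8 with Slc2a1. With library totals in place of TMM, which moved the median log2 change of all genes between day 7 and day 3 to 0.26 in XAV939 and 0.18 in untreated aggregates, Hk2 was called as well in XAV939, so 2 genes rose at day 4 and 2 at day 7, and 0 fell between day 7 and day 4 in untreated aggregates. That count was also 0 without the libraries set apart earlier (untreated day 4 library 1 and day 6 library 3). With library totals the all-gene split at day 7 against day 3 was 7357 higher and 4456 lower in XAV939 (6203 and 5758 with TMM) and 6732 and 4527 in untreated aggregates (5855 and 5495). At day 4 against day 3 in XAV939 it was 4184 and 2315 (3428 and 2984), and at day 5 against day 4 in untreated aggregates 2094 and 1040 (1769 and 1379). With the replicate block over all libraries 2 genes fell between day 7 and day 4 in XAV939, Ldha being added, and 3 rose in each arm, Pfkl being added. That block also added Pgk1 between day 6 and day 5 in untreated aggregates (3 genes). Between day 6 and day 5 in XAV939, 2 genes changed under relative log expression factors, library totals, the replicate block and DESeq2. Pairing the arms within days changed no call of the 10. Pfkl at day 7 in XAV939 lost its call with library totals (-0.45, adjusted p = 0.167) and with no filter (adjusted p = 0.0646), and Slc2a1 gained one in fits of only the compared libraries (-0.44, adjusted p = 0.0112 in XAV939 and 0.0186 in untreated aggregates).

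With each library left out in turn, the number changed between day 5 and day 4 ran from 2 to 6 in XAV939 and 0 to 1 in untreated aggregates, and between day 6 and day 5 from 0 to 3 and 1 to 3. Between day 7 and day 6 in XAV939 it ran from 0 to 2. The number that fell between day 7 and day 4 in untreated aggregates ran from 0 to 1, and the number that rose in XAV939 from 1 to 2 at day 4 and at day 7 against day 3. Over all genes, XAV939 against untreated gave 1, 3, 395, 733 and 1 calls at days 3 to 7. Fits of only the compared libraries gave 0 at each day, and DESeq2 gave 0, 56, 604, 956 and 100 at days 3 to 7. The replicate block gave 1, 0, 678, 1090 and 98 at these days. Leaving out libraries gave 0 to 55 at day 4, 83 to 449 at day 5, 331 to 1169 at day 6 and 0 to 83 at day 7. In untreated aggregates fits of only the compared libraries gave 1464 between day 6 and day 5 (3345 in the full fit) and 438 between day 7 and day 6 (2057), a step that gave 1143 without the libraries set apart and 955 to 3042 with single libraries left out. The causes were not tested.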
